A study of Mus musculus with 17 samples.

Results

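The 10 genes of the BCL2 family studied here were Bcl2, Bcl2l1, Bcl2l2, Mcl1, Bak1, Bcl2l11, Bid, Bad, Bik and Bmf, followed through mouse tubular cell cultures and whole kidneys. They were chosen by name, with no threshold on their values, and all 10 were found among the 53313 gene identifiers common to the 17 libraries and passed the filter on low counts in both experiments. Primary tubular epithelial cells (PTEC) were grown from collagenase-digested kidneys of wild-type C57BL/6Rj mice. The labels give this strain name for all mice, and the study spells it C57BL/6JRj. Non-senescent PTEC (4 cultures) were taken at day 6 and never irradiated. Senescent PTEC (4 cultures) had received 10 Gray of γ-rays when confluent and were taken at day 16, and effects of the radiation and of the longer culture cannot be told apart. Whole kidneys came from untreated wild-type C57BL/6Rj mice aged 3, 12 and 24 months, all males per the study, with 3 libraries per age, each made from one part of the right kidney. The culture is a model of tubular cells that have left the kidney, and a kidney library is a mixture of all its cell types, in which fewer cells of a type cannot be told apart from less RNA per cell. The labels do not say that same-group cultures came from separate animals, and p-values for PTEC measure the spread between these cultures.

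Proteins of the BCL2 family decide at the outer membrane of the mitochondrion whether a cell goes into apoptosis. The pro-survival members BCL2, BCL-xL (gene Bcl2l1), BCL-w (Bcl2l2) and MCL1 hold the effectors BAK (Bak1) and BAX in check. When the effectors are set free they form pores, cytochrome c leaves the mitochondrion and caspases are activated. BH3-only members, here BIM (Bcl2l11), BID, BAD, BIK and BMF, sense stress or loss of growth signals and insert a short helix, the BH3 domain, into a groove of the pro-survival members. Drugs that imitate this helix kill senescent cells in many models, and the senolytic ABT-263, which the study used in other experiments, occupies the groove of BCL2, BCL-xL and BCL-w. Much of the regulation of these proteins, such as the cleavage of BID, the phosphorylation of BAD and the fast turnover of MCL1, takes place after translation and is not seen in RNA.

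The BH3 core is part of the helix that BH3-only members insert into the groove, and a stretch with its pattern was found in all 10 members. It was located by a script in the longest complete coding sequence of each gene (GENCODE M21, GRCm38) as a codon for leucine or methionine, 3 codons of any kind, a codon for glycine, alanine or serine, and a codon for aspartate. Each member held this pattern once. The pattern alone is loose, since 8376 of 21511 protein-coding genes (38.9%) hold it, so a match describes these sequences and is not evidence of a BH3 domain. The 27 coding bases are given 5′ to 3′ on the coding strand, with capitals on the codon of the leucine or methionine and on the pair of codons that ends in aspartate. The pro-survival members come first, then the effector, then the BH3-only members.
Bcl2: accCTCcgccgggctGGGGATgacttc
Bcl2l1: gcgCTGagagaggcaGGCGATgagttt
Bcl2l2: gccATGcgggctgctGGAGACgagttt
Mcl1: accCTGcggcgcgtgGGCGACggcgtg
Bak1: cagCTTgctctcatcGGAGATgatatt
Bcl2l11: gagCTGcggcggatcGGAGACgagttc
Bid: catCTCgcccaaataGGCGATgagatg
Bad: gagCTCcgaaggatgAGCGATgagttt
Bik: aggCTGgcctgcatcGGCGATgagatg
Bmf: aagCTTcagtgtattGCAGACcagttc

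The core began at codon 94 of 236 in Bcl2, at codon 90 of 233 in Bcl2l1, at codon 46 of 193 in Bcl2l2 and at codon 194 of 331 in Mcl1. In Bak1 it began at codon 76 of 209. In the BH3-only genes it began at codon 150 of 196 in Bcl2l11, 90 of 195 in Bid, 151 of 204 in Bad, 55 of 150 in Bik and 224 of 271 in Bmf. The closest stretches were those of Bcl2l11 and Bad, of Bcl2l11 and Bmf, and of Bid and Bik, each pair with 19 of 27 bases in common, while Bcl2l2 and Bid shared 9 of 27.
On GRCm38 the printed stretches lie at chr1:106712578-106712604 (minus strand) for Bcl2, chr2:152829700-152829726 (minus) for Bcl2l1, chr14:54884514-54884540 (plus) for Bcl2l2 and chr3:95659433-95659459 (plus) for Mcl1. That of Bak1 lies at chr17:27022534-27022560 (minus). Those of the BH3-only members lie at chr2:128147147-128147173 (plus) for Bcl2l11, chr6:120897292-120897318 (minus) for Bid, chr19:6950789-6950815 (plus) for Bad, chr15:83543081-83543107 (plus) for Bik and chr2:118545103-118545129 (minus) for Bmf. All 10 are exonic and none is split by an intron.

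The authors had deposited reads counted per gene. Between 26963442 and 35409144 reads per PTEC library and between 37311247 and 66894790 per kidney library were counted on genes, with less depth at 3 months (at most 49471409) than at 12 and 24 months (at least 54097073). Values are given as CPM, counts scaled with edgeR's TMM method to a common library size within an experiment. Levels of different genes are compared only as CPM per kilobase of exon, here with TMM over all 17 libraries. This length joins all annotated exons of a gene, used or not, from 1591 bases in Bik to 9157 in Bcl2. The order of the genes and the shares within a class depend on it. Both senescence genes used to check the labels followed them, with each senescent culture above each non-senescent culture for Cdkn1a (at least 674 against at most 423 CPM) and Cdkn2a (at least 82.7 against at most 45.3 CPM). Proximal tubule markers summed to between 116 and 658 CPM in PTEC and to between 6043 and 13670 CPM in kidneys, so that the cultures had little of the transcripts that define the segment. Non-senescent replicate 3 differed most from the other cultures of its group, the chi-square per gene of its pairs being 150 to 213, against 21.6 to 127 in the remaining pairs. Replicate 2 at 12 months differed likewise from the other kidneys of its age (253 and 258 against 17.04), and replicates 2 and 3 at 3 months differed most of all pairs (341). Results that change without 1 of these libraries are given both ways.

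To see which members stood highest, levels per length were compared within each group. Mcl1, a short-lived pro-survival protein, and Bcl2l1 were the 2 members with the highest mean in all 5 groups. In non-senescent PTEC, Mcl1 was at 50.9 ± 3.48 (SD, n = 4) CPM per kilobase, Bcl2l1 at 48.0 ± 11.6 and the effector Bak1 at 42.0 ± 7.74, and the ranges of neighbours in this order overlapped. Bid followed at 15.1 ± 2.83, below every culture's value of Bak1. Bad was at 8.79 ± 2.70 and Bcl2l2 at 5.56 ± 1.07, each below the range of the gene before it. The lowest 4 members were Bcl2l11 (3.93 ± 0.965), Bmf (2.72 ± 0.839), Bik (2.24 ± 0.579) and Bcl2 (1.92 ± 0.449), whose neighbouring ranges overlapped. Bcl2, which gave the family its name, thus had the lowest mean level per length of the 10. In senescent PTEC it stood above Bcl2l11 in mean, at 4.52 ± 0.726 against 2.86 ± 0.574, although the ranges overlapped.
In kidneys the order differed in the middle. At 3 months Mcl1 was at 36.6 ± 3.51 (SD, n = 3) CPM per kilobase, Bcl2l1 at 30.2 ± 7.69, Bad at 24.0 ± 6.17 and Bid at 18.8 ± 2.67, each overlapping the next. Bcl2l2 (9.99 ± 2.44), Bik (9.80 ± 3.84) and Bak1 (5.75 ± 0.823) formed the next group, again with overlap between neighbours. Bmf (1.55 ± 0.622) and Bcl2 (1.53 ± 0.322) lay below Bak1. Bcl2l11 was lowest at all 3 ages, at 0.531 ± 0.0274 at 3 months, 1.13 ± 0.316 at 12 months and 0.920 ± 0.187 at 24 months.

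**Figure D1:**
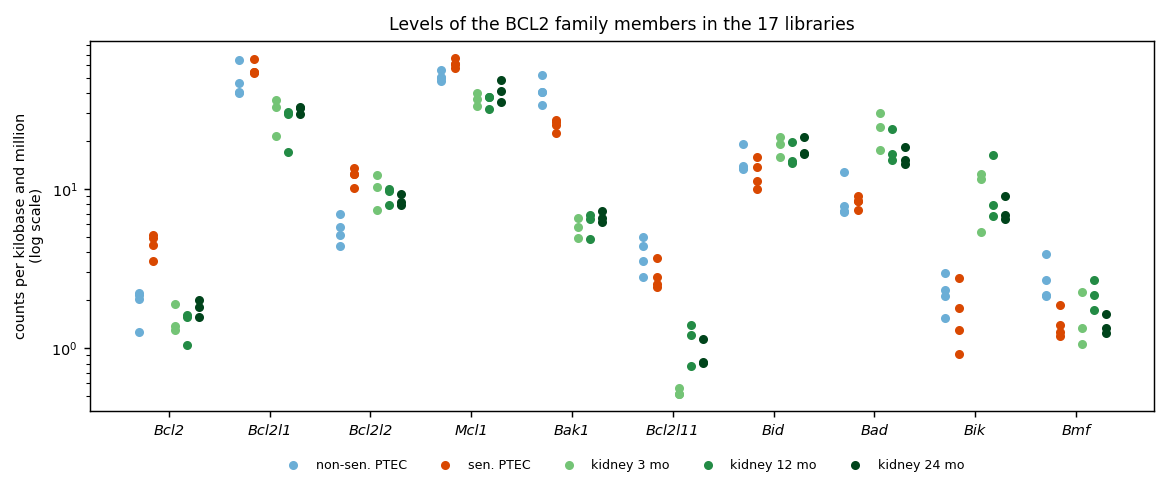
Each point is the level of a member in 1 library, in CPM per kilobase of exon on a log axis, coloured by group (4 libraries per PTEC group, 3 per kidney age). Bak1 and Bcl2l11 lie higher in every culture than in any kidney, and Bad and Bik higher in every kidney than in any culture.

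Cultures and kidneys were set side by side without a test, since they were separate experiments on different material. In 5 of 10 members the 8 cultures and 9 kidneys did not overlap, against 47.1% of the 13939 genes whose mean reached 1 CPM. Higher in every culture were Bcl2l1 (40.2 to 66.2 against 17.1 to 36.3 CPM per kilobase), Bak1 (22.6 to 52.4 against 4.86 to 7.31) and Bcl2l11 (2.41 to 4.99 against 0.514 to 1.39). Of all genes, 21.4% were higher in every culture. The largest of these differences in median was that of Bak1, 4.69-fold, followed by Bcl2l11 with 3.89-fold. Higher in every kidney were Bad (14.3 to 29.9 against 7.17 to 12.8) and Bik (5.39 to 16.4 against 0.916 to 2.95), with medians 2.17-fold and 4.03-fold higher, as were 25.7% of all genes. Bcl2, Bcl2l2, Mcl1, Bid and Bmf overlapped.

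The make-up of each class was calculated per length in each library. Mcl1 made up 48.1% ± 4.54 (SD, n = 4) of the 4 pro-survival transcripts in non-senescent PTEC and 45.6% ± 2.21 in senescent PTEC, and Bcl2l1 made up 44.7% ± 6.20 and 42.1% ± 3.53. The remaining 2 members were minor. Bcl2 had a share of 1.84% ± 0.559 in non-senescent and 3.34% ± 0.589 in senescent PTEC. Bcl2l2 had 5.30% ± 1.33 and 8.99% ± 1.31. Both shares were higher in every senescent culture than in any non-senescent culture, with Bcl2 from 2.50% to 3.86% against 1.04% to 2.34% and Bcl2l2 from 7.14% to 10.1% against 3.67% to 6.93%. The summed level of the class was 106 ± 11.2 CPM per kilobase in non-senescent and 136 ± 5.04 in senescent PTEC. In kidneys Bcl2l2 took a mean share of 12.6%, 12.8% and 10.2% at 3, 12 and 24 months, and Bcl2 of 1.94%, 1.94% and 2.16%.
Among the BH3-only members, Bid and Bad together led in all groups. Bid took 46.0% ± 3.04 and Bad 26.4% ± 3.74 in non-senescent PTEC, and 35.1% ± 8.52 and 43.6% ± 5.60 in 3-month-old kidneys. Bcl2l11, whose product BIM binds all 4 pro-survival members, made up 12.3% ± 3.84 in non-senescent PTEC, 10.8% ± 3.06 in senescent PTEC and 0.989% ± 0.157 in 3-month-old kidneys. Bik, a protein of the endoplasmic reticulum, made up 6.78% ± 0.994 in non-senescent PTEC and 17.4% ± 4.56 in 3-month-old kidneys. The summed level of this class was 32.8 ± 5.15 CPM per kilobase in non-senescent PTEC, 27.0 ± 3.05 in senescent PTEC and 54.7 ± 9.17, 48.7 ± 8.36 and 44.0 ± 5.76 in kidneys of 3, 12 and 24 months. Ranges overlapped between the PTEC groups and between neighbouring ages.

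**Figure D2:**
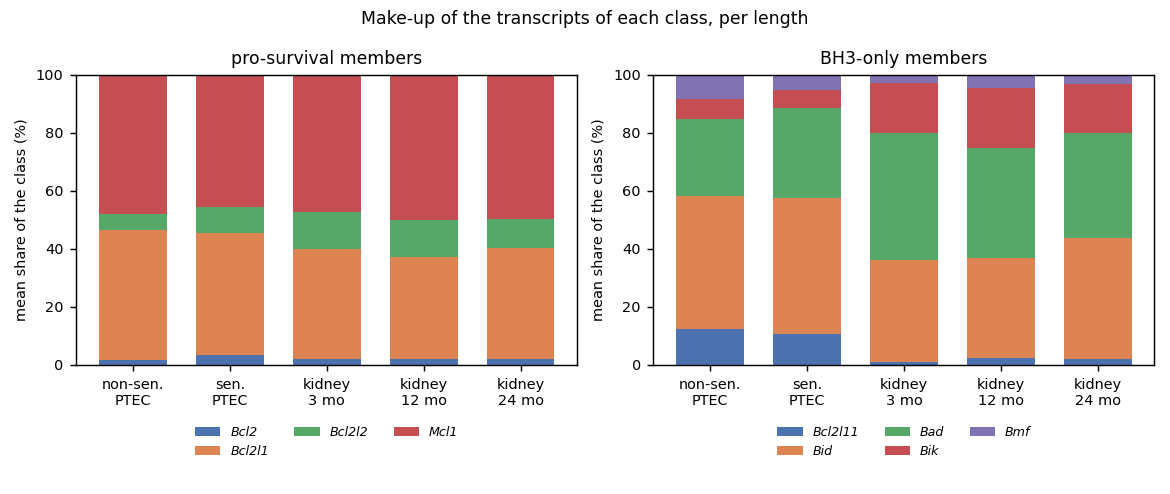
Bars show the mean share (%) of each member among the 4 pro-survival members (left) and the 5 BH3-only members (right) in each group, from CPM per kilobase. Mcl1 and Bcl2l1 fill most of the left bars, with Bcl2l2 at 5.30% in non-senescent and 8.99% in senescent PTEC, and Bcl2l11 has 12.3% of the right bar in non-senescent PTEC but 0.989% in 3-month-old kidneys.

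Senescent and non-senescent PTEC were compared to see how the members change when tubular cells become senescent. Bcl2 and Bcl2l2 were up-regulated, Bak1 and Bmf were down-regulated, and 6 members were not called. Calls required both a Benjamini-Hochberg adjusted p under 0.05 in edgeR's quasi-likelihood test and a log2 fold change beyond 0.5 in either direction. The 4 of 10 members called compare with 39.8% of the 15434 genes tested, with 20.1% up-regulated and 19.7% down-regulated, so the share of members called was close to that of all genes. Groups did not overlap for 5 of 10 members, against 42.0% of all genes, with 3 members higher (22.1% of all genes) and 2 lower (19.9%). At an unadjusted p under 0.05 there were 5 members, against 51.6% of all genes. By class, all 4 pro-survival members had positive and Bak1 and all 5 BH3-only members negative log2 fold changes. The median was 0.73 in the pro-survival class and -0.37 in the BH3-only class, against -0.002 over all genes tested. Of these signs only that of Bad was unstable, as described below with its values.

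**Figure D3:**
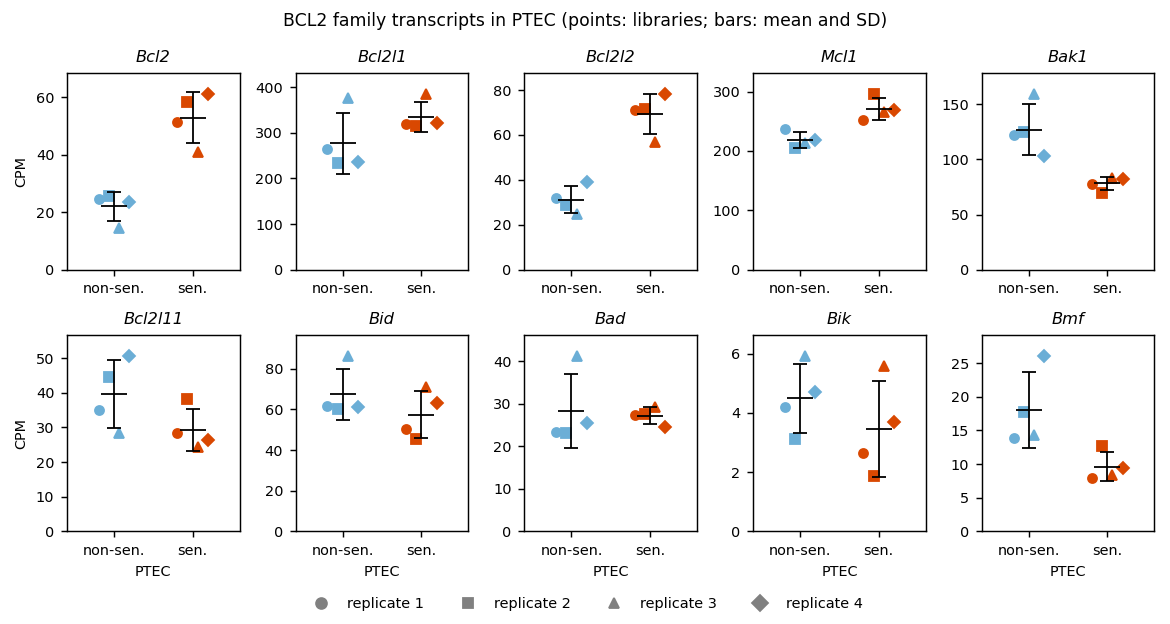
CPM of each member in the 4 non-senescent (blue) and 4 senescent (orange) PTEC libraries, with the mean and SD as black bars and the replicate number as the symbol. Bcl2 and Bcl2l2 are higher, and Bak1 and Bmf lower, in every senescent culture than in any non-senescent culture.

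Bcl2 (ENSMUSG00000057329.7) lies on chromosome 1 from 106538178 to 106714274 and is the founding pro-survival member. It was at 24.5, 25.8, 14.5 and 23.5 CPM in non-senescent PTEC and at 51.6, 58.3, 40.9 and 61.1 CPM in senescent PTEC. The lowest senescent culture thus lay above the highest non-senescent culture, and replicate 3 was the lowest of both groups. This was a log2 fold change of 1.26 (SE, the standard error, 0.206, edgeR adjusted p = 0.00104), a 2.40-fold rise. With each culture left out in turn it stayed between 1.11, without non-senescent replicate 3, and 1.38.
Bcl2l2 (ENSMUSG00000089682.10), on chromosome 14 from 54883377 to 54888234, encodes BCL-w. Its transcripts were at 32.0, 28.8, 24.8 and 39.2 CPM in non-senescent PTEC and at 71.1, 71.8, 56.9 and 78.1 CPM in senescent PTEC. The groups did not overlap. Bcl2l2 rose by 1.16 on the log2 scale (SE 0.167, edgeR adjusted p = 0.000551), with a range from 1.06 to 1.28 when cultures were left out. A read-through gene, Gm20521, shares 594 exonic bases with Bcl2l2 on the same strand but had at most 9 counts in any library.
Mcl1 (ENSMUSG00000038612.16), on chromosome 3 from 95658788 to 95663176, was at 237, 205, 214 and 219 CPM in non-senescent PTEC and at 253, 295, 265 and 269 CPM in senescent PTEC. Every senescent culture was above every non-senescent culture, but the difference was small. A log2 fold change of 0.31 (SE 0.116) had an edgeR adjusted p of 0.0550 and did not pass the threshold. With library totals alone, edgeR's adjusted p was 0.0334, and with DESeq2 it was 0.0431, each below the fold change required for a call. Other settings took it further from the threshold, with an adjusted p of up to 0.164 with cultures left out and up to 0.189 over all alternatives. The log2 fold change of Mcl1 lay between 0.26 and 0.36 over all alternatives.
Bcl2l1 (ENSMUSG00000007659.18), on chromosome 2 from 152780668 to 152831728, keeps epithelial cells and neurons alive. It was at 264, 233, 375 and 236 CPM in non-senescent PTEC and at 319, 315, 384 and 321 CPM in senescent PTEC. Here the groups overlapped because non-senescent replicate 3 was close to the highest senescent culture, which was also replicate 3. Within each pair of equally numbered cultures the senescent one was higher. The log2 fold change of Bcl2l1 was 0.27 (SE 0.176, edgeR adjusted p = 0.235), and it was not called, with or without the replicate block. Without non-senescent replicate 3 it was 0.46, with an adjusted p of 0.0138 from edgeR, still below the fold change required for a call. Counts are per gene, so that the long pro-survival form and the short pro-apoptotic splice form of Bcl2l1 are not distinguished.

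Bak1 (ENSMUSG00000057789.14), the effector that resides on the mitochondrion, lies on chromosome 17 from 27019810 to 27029009. It was at 122, 124, 159 and 103 CPM in non-senescent PTEC and at 77.5, 69.9, 83.2 and 82.5 CPM in senescent PTEC. All senescent cultures lay below all non-senescent cultures. Bak1 fell, with a log2 fold change of -0.70 (SE 0.148, edgeR adjusted p = 0.00430), and it was -0.57 without non-senescent replicate 3, the highest culture. Ggnbp1 overlaps 437 exonic bases of Bak1 on the opposite strand, and had at most 161 counts in a PTEC library. In kidneys it had up to 773, 528 and 545 counts at 3, 12 and 24 months, where Bak1 had between 423 and 941. A further identifier of Ggnbp1 was only in the gene set of the older kidneys. The part of shared reads in the differences between cultures and kidneys or between ages was not tested. Bax, the second effector of the family, had a log2 fold change of 0.05 (SE 0.232, edgeR adjusted p = 0.872), its means being 121 ± 20.1 CPM (SD, n = 4) for senescent and 116 ± 42.5 CPM (SD, n = 4) for non-senescent PTEC. Whether Bak1 and Bax differ in their response was not tested.

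Of the BH3-only members, Bmf was the one called. It (ENSMUSG00000040093.15) lies on chromosome 2 from 118528757 to 118549687, and its protein is held at the cytoskeleton until the cell detaches. Bmf was at 13.9, 17.8, 14.3 and 26.1 CPM in non-senescent PTEC and at 7.91, 12.7, 8.40 and 9.46 CPM in senescent PTEC. The groups did not overlap, although the highest senescent culture was close to the lowest non-senescent culture. Bmf fell, with a log2 fold change of -0.91 (SE 0.242, edgeR adjusted p = 0.0135) and lay between -1.06 and -0.68 when cultures were left out, with an adjusted p of at most 0.0460.
Bcl2l11 (ENSMUSG00000027381.16), on chromosome 2 from 128126038 to 128162547, was at 35.0, 44.7, 28.4 and 50.7 CPM in non-senescent PTEC and at 28.4, 38.1, 24.5 and 26.4 CPM in senescent PTEC. The groups overlapped. The log2 fold change was -0.43 (SE 0.210, edgeR adjusted p = 0.121). Within each of the 4 pairs of equally numbered cultures the senescent one was lower, and with the replicate block the log2 fold change was -0.42 (edgeR adjusted p = 0.0389), short of the fold change required for a call. Without non-senescent replicate 3, the lowest culture of its group, Bcl2l11 was called as down-regulated, with -0.56 and an adjusted p of 0.0331 from edgeR.
Bid (ENSMUSG00000004446.12, chromosome 6, 120891930 to 120916853), which links death receptors to mitochondria, ranged from 60.4 to 86.4 CPM in non-senescent and from 45.5 to 71.0 CPM in senescent PTEC. Its log2 fold change was -0.23 (SE 0.181, edgeR adjusted p = 0.335). It was -0.083 without non-senescent replicate 3 and -0.13 without senescent replicate 2. Bcl2l13 overlaps 628 exonic bases of Bid on the opposite strand and had up to 3260 counts in PTEC and 3537 in kidneys. Reads may be shared if strand was not used in counting.
Bad (ENSMUSG00000024959.14, chromosome 19, 6941861 to 6951899), a sensor of growth factor signals, ranged from 23.2 to 41.3 CPM in non-senescent and from 24.5 to 29.3 CPM in senescent PTEC. Its log2 fold change of -0.06 (SE 0.198, edgeR adjusted p = 0.840) turned to 0.19 without non-senescent replicate 3 and to 0.007 with library totals alone. Gpr137 overlaps 524 exonic bases of Bad on the opposite strand, with up to 1235 counts in PTEC and 1935 in kidneys.
Bik (ENSMUSG00000016758.4, chromosome 15, 83526862 to 83544634) ranged from 3.12 to 5.92 CPM in non-senescent and from 1.88 to 5.59 CPM in senescent cultures. Its log2 fold change was -0.37 (SE 0.347, edgeR adjusted p = 0.412), an error about as large as the difference. It was -0.21 without non-senescent replicate 3, -0.17 without senescent replicate 2 and -0.70 without senescent replicate 3.

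Non-senescent replicate 3 was the lowest culture of its group for Bcl2, Bcl2l2 and Bcl2l11 and the highest for Bcl2l1, Bak1, Bid, Bad and Bik. Without it, the calls of Bcl2, Bcl2l2, Bak1 and Bmf remained. Transcripts of other cell types and states also moved between the PTEC groups. The summed level of 4 proliferation markers fell from between 613 and 1201 CPM to between 21.6 and 39.4 CPM, with all 4 called as down-regulated. Markers of later nephron segments were lower too, those of the loop of Henle at 0.449 to 0.729 CPM against 5.02 to 22.4 CPM (2 of 2 called) and those of the distal tubule and collecting duct at 0.335 to 1.19 CPM against 3.41 to 22.3 CPM (the 1 tested was called). Pan-leukocyte markers summed to between 21.3 and 40.9 CPM and between 13.8 and 33.8 CPM, with 3 of 5 tested called as down-regulated. The 4 fibroblast and pericyte markers summed to between 9.01 and 55.3 CPM in non-senescent and between 56.7 and 208 CPM in senescent PTEC, with 2 of 4 called as up-regulated (Pdgfrb and Dcn). Dcn averaged 0.0893 CPM in non-senescent and 0.765 CPM in senescent PTEC. It passed the filter on low counts only through the senescent group, which favours its call. Macrophage markers summed to between 82.0 and 123 CPM and between 56.8 and 224 CPM, with Cd68 (-1.12) of 6 called. Slc5a2 of the proximal tubule (-2.41) and Kdr of the endothelium (-1.01) were also down-regulated, and Nphs1 of podocytes was up-regulated (3.36). Nphs1 averaged 0.0984 CPM in non-senescent and 1.03 CPM in senescent PTEC. It owed its pass of the filter on low counts to the senescent group, which favours its call. Umod and Slc12a1 of the loop of Henle and Slc5a2 were in turn low in senescent PTEC (means 0.301, 0.282 and 0.299 CPM), which favours calls in the other direction. B and plasma cell markers summed to between 0.0307 and 0.235 CPM and between 0.484 and 0.770 CPM, whereas T and NK cell markers summed to at most 0.0691 CPM in any culture. The part of these cell types and states in the changes of the members was not tested.

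The other genes of the pathway were counted in the same fit, from lists chosen by function. Of 15 other BCL2 family genes, 10 were tested in PTEC, with 3 up-regulated and 3 down-regulated, beside 20.1% and 19.7% of all genes tested. The 3 up-regulated genes include Hrk, which passed the filter on low counts only through the senescent group, so that the filter favours this count. With settings changed or cultures left out, 2 to 3 were up-regulated and 1 to 3 down-regulated. Pmaip1 encodes the BH3-only protein NOXA, a p53 target that binds MCL1. It averaged 133 ± 5.63 CPM (SD, n = 4) before and 367 ± 82.9 CPM (SD, n = 4) in senescence, a log2 fold change of 1.46 (SE 0.171, edgeR adjusted p = 0.000167). Bbc3, which encodes the p53 target PUMA, rose by a log2 fold change of 0.81 (edgeR adjusted p = 0.0209), a call that was lost without non-senescent replicate 1, 2 or 4 (adjusted p up to 0.06003). Hrk, a BH3-only gene best known from neurons, had 2 or 3 counts in each non-senescent culture and between 10 and 22 in each senescent culture. Hrk passed the filter on low counts only through the senescent group, which favours its call. The ratio of the scaled sums was 6.98 (95% interval from exact binomial counting error 3.47 to 15.9). This interval leaves out the spread between cultures. Bcl2l15 (log2 fold change -1.66), the mitophagy receptor Bnip3 (-0.86) and the effector-like gene Bok (-0.74) were down-regulated, with adjusted p of 0.0133, 0.0236 and 0.0320 from edgeR. The call of Bnip3 was lost without non-senescent replicate 3 or 4 or without senescent replicate 1, 3 or 4, and that of Bok without replicate 1 or 3 of the non-senescent or 1, 2 or 4 of the senescent cultures. Over the list, with Hrk included, the median log2 fold change was -0.11.

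Downstream of the mitochondrion, none of 14 genes for caspases and the apoptosome was up-regulated (20.1% of all genes were) and 6 were down-regulated (19.7% of all genes), and the median over the list was -0.38. Cycs, which encodes cytochrome c, averaged 115 ± 27.0 CPM (SD, n = 4) in non-senescent cultures and 61.0 ± 6.78 CPM (SD, n = 4) in senescent ones, a log2 fold change of -0.91 (edgeR adjusted p = 0.00225). Aifm1, a mitochondrial flavoprotein, had a log2 fold change of -0.83 (edgeR adjusted p = 0.00112). Endog, a mitochondrial nuclease, had one of -0.92 (edgeR adjusted p = 0.0434), which did not pass with library totals alone (adjusted p = 0.0539) or without any 1 of 6 cultures (adjusted p up to 0.113). Without non-senescent replicate 3 the log2 fold change of Endog was -0.54. The initiator Casp9 had a log2 fold change of -0.12 (edgeR adjusted p = 0.455) and Apaf1, the scaffold of the apoptosome, one of 0.22 (edgeR adjusted p = 0.476). With cultures left out or settings changed, between 2 and 7 genes of this list were down-regulated.
Of 6 caspase brakes, 1 was up-regulated and 2 were down-regulated, beside 20.1% and 19.7% of all genes tested. Cflar, which encodes the caspase-8 brake FLIP, rose by a log2 fold change of 0.68 (edgeR adjusted p = 0.0251), a call lost without senescent replicate 1, 2 or 4 (adjusted p up to 0.0697). Birc5, which encodes survivin and is expressed by dividing cells, averaged 81.9 ± 25.2 CPM (SD, n = 4) in non-senescent cultures and 1.79 ± 0.267 CPM (SD, n = 4) in senescent ones, a log2 fold change of -5.51 (edgeR adjusted p = 2.99e-06). It moved in the same direction as the proliferation markers above. Birc3 had a log2 fold change of -0.68 (edgeR adjusted p = 0.00310), and Xiap was not called.
Of 7 death receptors and adaptors, Fas (log2 fold change 1.77, edgeR adjusted p = 0.000234) and the TRAIL receptor gene Tnfrsf10b (0.86, adjusted p = 0.000837) were up-regulated, beside 20.1% of all genes. Tnfrsf21 was down-regulated (-1.77, adjusted p = 2.44e-05), beside 19.7% of all genes. Of 12 partners and regulators of the members, 4 were up-regulated and 1 was down-regulated, beside the same 20.1% and 19.7% of all genes. With settings changed or cultures left out, 2 to 4 were up-regulated and 1 to 3 down-regulated. Fbxw7 (0.65), whose protein marks MCL1 for degradation, and Dynll2 (0.64), a dynein light chain that holds BMF, kept their call with each culture left out. The stress factor gene Ddit3 (1.37) lost it without non-senescent replicate 1, 2 or 4 or senescent replicate 1 or 3, with adjusted p up to 0.0702, and also without the filter on low counts (adjusted p = 0.0580). Without non-senescent replicate 3 the log2 fold change of Ddit3 was 2.08. Foxo3, which encodes a factor that activates Bcl2l11 and Bbc3, was just past the fold threshold (0.53, edgeR adjusted p = 0.0274) and lost its call without non-senescent replicate 1, 2 or 3 or senescent replicate 1, 2 or 4. Vdac2 (-0.78, adjusted p at most 0.0108 with cultures left out) encodes the channel that anchors BAK.

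The kidneys of 3 ages were compared in pairs to see whether the members change with age. In the edgeR fit of all 9 kidneys with the filter on low counts, none of the 10 members was called in any of the 3 comparisons. Of the 17067 genes tested, 2.34% were called at 24 against 3 months (1.89% up-regulated, 0.451% down-regulated), 2.58% at 12 against 3 months (1.22% and 1.36%) and 1.33% at 24 against 12 months (0.896% and 0.434%), so that 0 of 10 members is near the share of all genes. At an unadjusted p under 0.05 there were 2 members (Bcl2l11 and Bad), 1 member (Bcl2l11) and 0 members, against 18.2%, 16.5% and 15.2% of all genes. DESeq2 called 1 member, Bcl2l11 at 12 against 3 months, and none in the other comparisons. Some edgeR alternatives called Bcl2l11 at 12 against 3 months or Bmf at 24 against 12 months, as given below. Groups did not overlap for 1 member in each comparison. It was Bcl2l11, higher, at 24 and at 12 against 3 months, and Bmf, lower, at 24 against 12 months. Of all genes, 22.0% (11.9% higher, 10.1% lower), 20.3% (10.9% and 9.4%) and 25.6% (13.5% and 12.2%) did not overlap. The medians over the members were 0.01, -0.09 and 0.03, against 0.0007, 0.004 and -0.0004 over all genes.

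**Figure D4:**
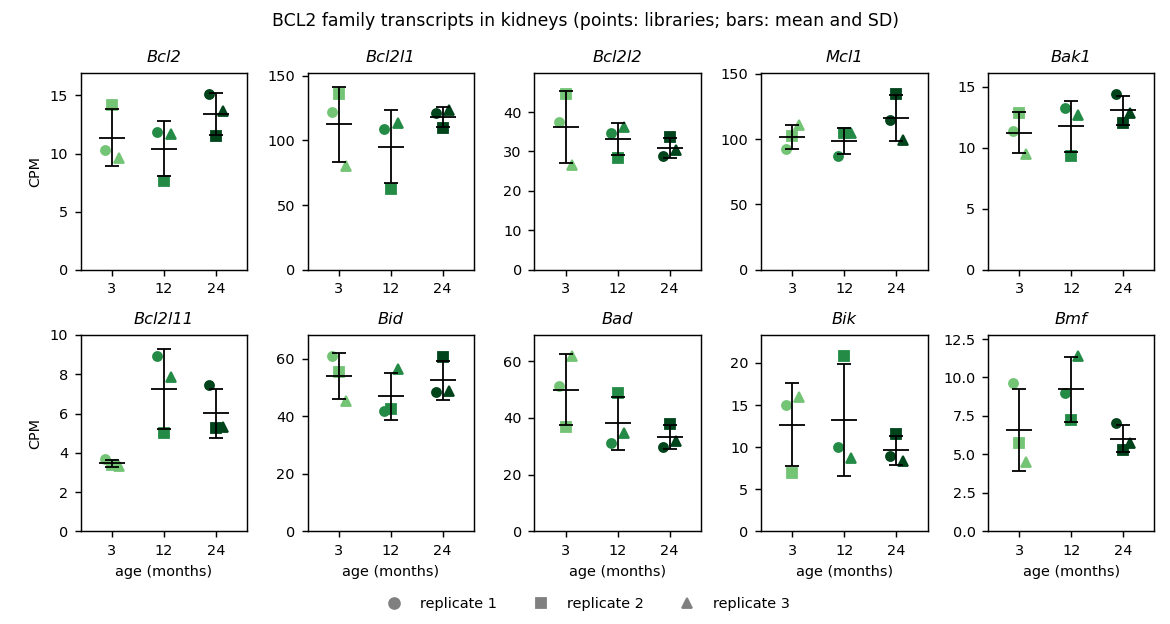
CPM of each member in the 3 libraries of each age, with the mean and SD as black bars and the replicate number as the symbol. Bcl2l11 is lower in every 3-month-old kidney (at most 3.68 CPM) than in any older kidney (at least 4.98 CPM), and the ages overlap for most other members.

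Bcl2l11 had the largest log2 fold change of the members at 12 and at 24 against 3 months. It was at 3.68, 3.36 and 3.35 CPM at 3 months, at 8.93, 4.98 and 7.87 CPM at 12 months and at 7.45, 5.24 and 5.33 CPM at 24 months. The 3 young kidneys lay close together and below all 6 older kidneys. At 12 against 3 months the log2 fold change was 1.07 (SE 0.242, edgeR adjusted p = 0.0551), a 2.10-fold difference in fitted level that fell short of the threshold. The call was made with DESeq2 (1.06, adjusted p = 0.00436), in edgeR without the filter on low counts (1.10, adjusted p = 0.0468) and without 12-month replicate 2, the lowest of its age (1.28, edgeR adjusted p = 0.0341). Over all alternatives the adjusted p lay between 0.00436 and 0.193. At 24 against 3 months the log2 fold change was 0.80 (SE 0.241, edgeR adjusted p = 0.136, between 0.0812 and 0.427 over all alternatives), and at 24 against 12 months it was -0.27 (adjusted p = 0.601). Both comparisons with 3 months share the same young kidneys. Sums of the pan-leukocyte, the T and NK cell, the B and plasma cell and the fibroblast and pericyte markers were, like Bcl2l11, lower in every 3-month-old kidney than in any older kidney. The 6 pan-leukocyte markers summed to between 55.5 and 65.8 CPM at 3 months, between 88.3 and 90.4 at 12 months and between 93.7 and 136 at 24 months. T and NK cell markers summed to between 2.55 and 3.40, 5.02 and 9.56, and 5.19 and 7.41 CPM, and the 4 fibroblast and pericyte markers to between 62.5 and 76.7, 88.7 and 98.8, and 101 and 130 CPM. B and plasma cell markers summed to between 2.27 and 6.57, 9.56 and 90.7, and 15.8 and 104 CPM, mostly from Jchain (means 1.44, 50.0 and 44.4 CPM), while Cd79b and Mzb1 of that list had negative log2 fold changes against 3 months at both older ages. Macrophage marker sums overlapped between the ages (99.9 to 160, 143 to 166 and 160 to 205 CPM), and endothelial sums were higher at 12 months (197 to 216 CPM) than at 3 months (125 to 174 CPM) but overlapped at 24 months (135 to 228 CPM). Distal tubule and collecting duct sums were lower at 12 months (660 to 833 CPM) than at 3 months (998 to 1261 CPM) but overlapped at 24 months (913 to 1227 CPM). Aqp2 of that list was down-regulated at 12 against 3 months (-2.18, edgeR adjusted p = 0.0224). Between 12 and 24 months, where the log2 fold change of Bcl2l11 was negative, leukocyte markers went both ways. The pan-leukocyte sum was higher at 24 months in every kidney, with Laptm5 (0.68), Lcp1 (0.28), Coro1a (0.10) and Cd52 (0.08) positive but Ptprc (-0.09) and Cd53 (-0.04) negative. Of the T and NK cell markers, Cd3d (-0.50), Nkg7 (-0.24) and Trbc2 (-0.82) were negative and Cd3e (0.27), Cd3g (0.34) and Cd8a (0.10) positive. The part of these cells in the level of Bcl2l11 was not tested. Library depth also differed, and 3-month-old kidneys were counted on another gene set than older kidneys, which cannot be told apart from age. The identifier of Bcl2l11 carried the same version in both.

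Bad had lower means at the older ages. It was at 51.1, 36.7 and 61.8 CPM at 3 months, 31.0, 48.7 and 34.5 CPM at 12 months and 29.9, 38.0 and 31.8 CPM at 24 months. The lowest young kidney lay below the highest kidney of each older age. The log2 fold change was -0.59 (SE 0.235, edgeR adjusted p = 0.238) at 24 against 3 months and -0.39 (adjusted p = 0.486) at 12 against 3 months. The identifier of Bad, like those of Bak1 and Bmf, had a newer version in the gene set of the older kidneys, so that their gene models may differ between young and older kidneys. The part of this in their values was not tested.
Bmf was at 9.61, 5.72 and 4.50 CPM at 3 months, 9.004, 7.25 and 11.4 CPM at 12 months and 7.04, 5.30 and 5.74 CPM at 24 months. The kidneys of 24 months lay just below those of 12 months, which shared their gene set. The log2 fold change at 24 against 12 months was -0.61 (SE 0.289, edgeR adjusted p = 0.359). In a fit of these 2 ages alone with the replicate number as a block, it was -0.60 with an adjusted p of 0.0321 from edgeR. In that fit 1297 genes were called as up-regulated and 903 as down-regulated, against 153 and 74 in the fit of all ages, and Bmf was the only member among them.

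None of the 4 pro-survival members was called between ages. Bcl2 was at 10.3, 14.2 and 9.63 CPM at 3 months, 11.9, 7.67 and 11.7 CPM at 12 months and 15.1, 11.5 and 13.6 CPM at 24 months, and each pair of ages overlapped. Its log2 fold change was 0.24 (SE 0.221, edgeR adjusted p = 0.534) at 24 against 3 months, where in senescent PTEC it was 1.26. Bcl2l2 was between 26.6 and 44.5 CPM at 3 months and between 28.8 and 33.7 CPM at 24 months, a log2 fold change of -0.23 (SE 0.197, edgeR adjusted p = 0.510). Whether senescence in culture and age in the kidney differ in their effect on these genes was not tested. Mcl1 had log2 fold changes of 0.19 at 24 against 3 months, -0.04 at 12 against 3 months and 0.23 at 24 against 12 months, with standard errors of 0.159 and values between 87.0 and 134 CPM in the 9 kidneys. Bcl2l1 had log2 fold changes of 0.07, -0.24 and 0.31, with standard errors of 0.261 and values between 62.6 and 136 CPM. The lowest Bcl2l1 values were those of 12-month replicate 2 (62.6 CPM) and 3-month replicate 3 (79.8 CPM).
Among the remaining members, Bak1 lay between 9.34 and 14.4 CPM in all kidneys, with log2 fold changes of 0.22, 0.06 and 0.16 in the 3 comparisons and standard errors of at most 0.179. Bid lay between 41.7 and 60.5 CPM at the older ages and between 45.5 and 61.1 CPM at 3 months, with log2 fold changes of -0.04, -0.20 and 0.16. Bik varied widely between kidneys of 1 age. It was at 15.04, 6.99 and 15.9 CPM at 3 months, 10.1, 20.8 and 8.70 CPM at 12 months and 8.90, 11.5 and 8.37 CPM at 24 months. The highest kidney was 12-month replicate 2. Without it, the log2 fold change of Bik at 12 against 3 months turned from 0.06 to -0.43, and at 24 against 12 months from -0.46 to 0.03, with none of these past the threshold in edgeR. The same kidney was the lowest of its age for Bcl2, Bcl2l1, Bcl2l2, Bak1, Bcl2l11 and Bmf and the highest for Bad. It also had the lowest sum of proximal tubule markers of its age (7034 against 12198 and 12934 CPM). At 3 months replicate 3 had the lowest such sum (6043 against 8581 and 11862 CPM). The part of this difference in make-up in the values of the members was not tested.

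**Figure D5:**
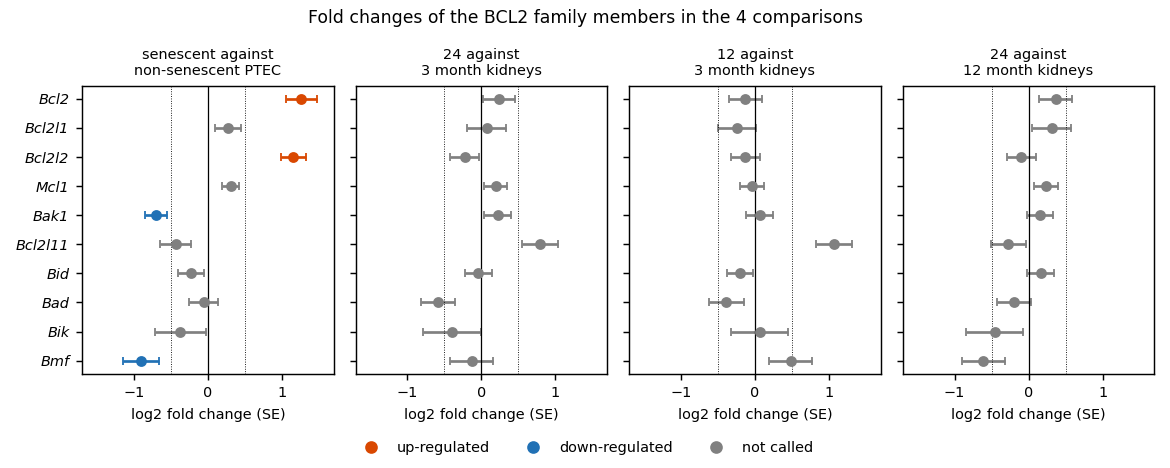
Log2 fold change of each member with its standard error in the 4 comparisons, orange where up-regulated, blue where down-regulated and grey where not called. Dotted lines mark the log2 fold change of 0.5 either way that a call required, and the largest difference between kidneys is that of Bcl2l11 at 12 against 3 months (1.07, edgeR adjusted p = 0.0551).

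In the other lists of pathway genes, 2 genes were called between kidneys, both up-regulated at 24 against 12 months. Of the 17067 genes tested, 0.896% were up-regulated in that comparison. Pmaip1 was at 9.95 ± 2.40 CPM (SD, n = 3) at 24 months, 4.29 ± 0.490 CPM (SD, n = 3) at 12 months and 5.19 ± 0.983 CPM (SD, n = 3) at 3 months, with a log2 fold change of 1.21 (edgeR adjusted p = 0.0402). Tnfrsf10b was at 4.12 ± 0.710, 1.504 ± 0.393 and 2.93 ± 0.588 CPM (SD, n = 3), with a log2 fold change of 1.45 (edgeR adjusted p = 0.0363). Both genes were also up-regulated in senescent PTEC. Neither call held with library totals alone, with the compared ages alone (adjusted p = 0.0551 for both), with the replicate block in the fit of all kidneys (0.136 and 0.133) or with any 1 kidney of the 2 ages left out (adjusted p between 0.0535 and 0.154 for Pmaip1 and between 0.0577 and 0.145 for Tnfrsf10b). With the 2 ages and the replicate block both passed, with adjusted p of 0.00158 and 0.00268 from edgeR. At 24 against 3 months Pmaip1 had a log2 fold change of 0.94 (adjusted p = 0.0649) and Tnfrsf10b of 0.49 (adjusted p = 0.322). Proliferation markers, which summed to between 13.2 and 29.8 CPM at 24 months and between 3.801 and 4.24 CPM at 12 months, moved in the same direction. Sums for the loop of Henle (3496 to 4569 against 2464 to 3132 CPM) and the distal tubule and collecting duct (913 to 1227 against 660 to 833 CPM) did likewise. So did fibroblast and pericyte (101 to 130 against 88.7 to 98.8 CPM) and pan-leukocyte sums (93.7 to 136 against 88.3 to 90.4 CPM). Sums of the other cell types overlapped between these ages. The part of these cells and states in the 2 genes was not tested. No gene for caspases and the apoptosome, no caspase brake and no partner or regulator of the members was called between ages in the fit of all 9 kidneys. Alternatives gave other counts. At 24 against 12 months the 2 ages with the replicate block gave 4 partners and 1 caspase brake up-regulated and 2 other BCL2 family genes down-regulated, and DESeq2 gave 1 caspase brake up-regulated. Single calls elsewhere were 1 down-regulated partner (without 3-month replicate 2) and 1 down-regulated death receptor gene (DESeq2) at 12 against 3 months, and, in the other BCL2 family, at most 1 gene in either direction at 24 against 3 months and at most 1 down-regulated at 12 against 3 months.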

How the data were processed

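The authors prepared stranded poly(A) libraries, processed the reads with nf-core/rnaseq, naming GENCODE M 18 of GRCm38, and deposited unnormalized counts per gene, used here as they are. Which program counted, and with which strand setting, is not given in the sources used here. PTEC, 3-month-old and older kidneys were counted on 3 gene sets (53715, 54146 and 55401 identifiers), matched without version. Symbols, positions, exon lengths and coding sequences came from GENCODE M 21.

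PTEC and kidneys were fitted separately, with all 9 kidneys in 1 fit, using edgeR 4.0.16 in R 4.3.3 (TMM, filterByExpr, robust quasi-likelihood test, Benjamini-Hochberg adjustment over all genes tested). Adjusted p-values are from edgeR unless DESeq2 is named. DESeq2 1.42.0 was an alternative, beside other scalings, no low-count filter, no fold threshold, a replicate block, the compared ages alone and each library left out. Python 3.11.15 with pandas 2.3.3, scipy 1.17.1 and matplotlib 3.10.9 made summaries and figures. The fits were tested on simulated data with known changes. At an absolute log2 fold change of 1, 53 of 103 changed genes were called in PTEC and 32 of 102 at 24 against 3 months. At 2, it was 93 of 97 and 85 of 98. False calls were 4 of 150 and 7 of 124. A gene without a call, above all in kidneys, may thus still differ.

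The members and lists were chosen with earlier results of these data known. All 10 members were named throughout, and of each other list at most the 3 called genes with the largest and the 3 with the smallest log2 fold change. Bax, Casp9, Apaf1, Xiap and Foxo3 were added after their values were seen.

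Replicate numbers are shared between groups. Deviations of equally numbered PTEC cultures from their group means were correlated (r between 0.186 and 0.614 in 4 pairs). Those of 12- and 24-month-old kidneys were too (0.172 to 0.557 in 3 pairs). Differently numbered samples reached up to 0.265 in PTEC and 0.270 between 12 and 24 months, above the lowest equally numbered pair of each. Between 3 and 12 months they reached 0.747. These values do not show that equal numbers are pairs, and the labels do not say so. The main fits were unpaired, and only the replicate block treats equal numbers as pairs. Equally numbered kidneys of 3 months and an older age had negative values (-0.701 to -0.0336). A replicate block in comparisons with 3 months thus groups kidneys that share only a number. Replicate libraries differed by more than counting error (chi-square per gene 17.04 to 341).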

Additional observations from a re-analysis of the deposited data

Results flagged for a closer look

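Each member was examined in each PTEC group for a culture standing far from the other 3, by comparing its gap to the nearest culture with the range of the group. Of 20 groups of 4 cultures, 3 were flagged, where chance flags about 1 in 20 groups. Bcl2l1 stood out in senescent replicate 3 (384 CPM, with a gap of 0.913 of the range). Bid stood out in non-senescent replicate 3 (86.4 CPM, 0.957 of the range) and so did Bad (41.3 CPM, 0.875 of the range). All 3 are high values in cultures numbered 3. Groups of 3 kidneys were not examined in this way.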

How the results depend on the processing

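For the 10 members in 4 comparisons, 516 alternative values kept their direction and their side of the threshold, 5 came past it and 19 turned in sign, all of them of members that were not called. The 4 calls in PTEC held under each edgeR alternative and in DESeq2, which was run with 1 setting, and the replicate block gave the same 2 up-regulated and 2 down-regulated members, with 1.28 for Bcl2. In the fit of all kidneys the block changed no call of a member and ended those of Pmaip1 and Tnfrsf10b at 24 against 12 months (adjusted p = 0.136 and 0.133). The 1 member call it brought was that of Bmf at 24 against 12 months, down-regulated in the fit of 2 ages (1 member in place of 0), a setting added after seeing the data. At 12 against 3 months the number of up-regulated members was 1 in place of 0 with no filter on low counts and with DESeq2, and 0 to 1 with kidneys left out. The cause was not tested. In PTEC Bad turned to 0.00712 with library totals alone and ranged from -0.15 to 0.19 with cultures left out. At 12 against 3 months Bik turned to -0.021 with the replicate block. With kidneys left out, values at 24 against 3 months ranged from -0.15 to 0.058 for Bid, from -0.35 to 0.24 for Bmf and from -0.13 to 0.23 for Bcl2l1. At 12 against 3 months they ranged from -0.24 to 0.066 for Bcl2, -0.31 to 0.051 for Bcl2l2, -0.43 to 0.29 for Bik, -0.11 to 0.040 for Mcl1 and -0.045 to 0.21 for Bak1, and at 24 against 12 months from -0.32 to 0.018 for Bad and -0.68 to 0.032 for Bik. Counts over all genes depended on the settings in kidneys. Up-regulated and down-regulated genes numbered 322 and 77 (24 against 3 months), 209 and 232 (12 against 3) and 153 and 74 (24 against 12), but 727 and 308, 531 and 576, and 493 and 286 with DESeq2, 102 and 24, 52 and 66, and 0 and 0 with the replicate block, and 208 and 57, 38 and 26, and 141 and 46 with only the compared ages. With 1 kidney left out they lay between 52 and 460, 31 and 249, and 0 and 55 for up-regulated and between 22 and 334, 21 and 467, and 1 and 8 for down-regulated genes.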
